A study of Bos taurus with 4 samples.

Results

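The interferon response and antigen presentation genes described here are a list of 43 bovine genes: interferon-induced effectors, interferon regulatory factors, PARP family genes with the ubiquitin ligase gene DTX3L, genes of peptide loading onto MHC class I, and the chemokine genes CXCL9 and CXCL10. Members were found as non-control probes whose reference accession mapped to a listed symbol, and all probes of each gene were kept. In this way 30 of the 43 genes were matched to 60 probes, out of 11054 named genes on the array. After the filter on dim probes, 29 genes with 54 probes were tested. No probe was matched for IFIT2, IFI44, IFI44L, BST2, ADAR, IFIH1, DDX58, STAT2, IRF1, IRF2, IRF4, PARP14 and NLRC5, and the single CXCL9 probe was well above background on 2 of 4 arrays in each dye and was not tested.

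The study compared m. semitendinosus, a hind limb muscle, of 15-month-old Hereford (HER) bulls, a beef breed, with that of Holstein-Friesian (HF) bulls, a dairy breed. RNA came from mid-muscle pieces collected at slaughter and trimmed of fat and connective tissue. Each of the 4 dual-colour Agilent bovine arrays, all on 1 slide, carried RNA of 1 HER bull and 1 HF bull, labelled with Cy3 and Cy5, so that 4 bulls of each breed were measured as biological replicates. No bull was treated, and no genotype other than breed was given.

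Interferons are cytokines that act through receptors, Janus kinases and STAT proteins, and those of type I are released when a cell senses viral nucleic acid. IRF9 is part of the factor that switches on interferon-stimulated genes, whose products block viral replication, while interferon gamma raises guanylate-binding proteins, the immunoproteasome and MHC genes. Peptides cut by the proteasome are carried into the endoplasmic reticulum by TAP1 and TAP2 and are loaded with the help of tapasin onto MHC class I heavy chains paired with beta-2-microglobulin. In resting muscle these genes are expressed in the fibres and in the resident macrophages, lymphocytes and vessel cells.

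All signed values below are log2(Cy5/Cy3), and no breed direction is given for them. The labels assign Cy3 to HER and Cy5 to HF on every array, but their descriptions also say that the dyes were exchanged so that HF served as reference, and the arrows in the tables of the study run with Cy5 over Cy3, which opposes the dyes as labelled. The bulls are therefore called Cy5 bulls and Cy3 bulls. Since every array had the same dye orientation, dye and breed cannot be told apart. All 8 muscle markers were tested (ACTA1, CKM, MYH1, MYH2, MYH7, TNNT3, DES and MB), and every one was well above background. Median raw intensity per array was 129 to 160.5 in Cy5 and 77 to 138 in Cy3 against a background of 37 to 41, so that 76.7% to 82.1% of probes were well above background in Cy5 and 65.2% to 76.3% in Cy3. No spot was saturated. As muscle is a mixed tissue, fewer cells of a type and less RNA per cell cannot be told apart in any value below.

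No interferon or antigen presentation probe passed the test over all 32606 tested probes. With limma and Benjamini-Hochberg adjustment, 0 of 54 member probes were called, against a background of 3.32% of all probes, of which 1.97% were higher and 1.35% lower in Cy5. The smallest adjusted p of a member was 0.0554, for USP18. At an unadjusted p under 0.05 there were 13 member probes of 8 genes (DTX3L, IFI35, IRF9, ISG15, PARP9, TAP2, USP18 and XAF1). These 13 were 24.1% of the member probes, close to the 24.7% of all probes. All 13 had higher signal in the Cy5 bulls, where 13.8% of all probes were higher and 10.9% lower. The probes of USP18 and DTX3L and the dimmest probe of IRF9 among them passed the filter on dim probes through Cy5 alone.

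The list as a whole lay on the Cy5 side. At the brightest probe of each gene, 26 of 29 genes had a mean log2 ratio above 0 (89.7%), against 54.3% of the 9425 named genes tested. Since 5 of the 29 (GBP5, IFIT3, USP18, DTX3L and PARP12) passed the filter on dim probes through Cy5 alone and none through Cy3 alone, the count was repeated over the 24 that were well above background in both dyes, where 21 were above 0 (87.5%, against 52.9% of such named genes) with a median of 0.24. The median over the 29 members was 0.21, with a range from -0.24 to 1.16, against a median of 0.02 over the named genes. The study called genes by an unadjusted threshold of 0.05 and a fold change of 1.3. With these thresholds on the limma test, 5 genes were higher in the Cy5 bulls (ISG15, IRF9, TAP2, IFI35 and USP18) and 0 were lower. ISG15 did not reach them without replicate 1, 3 or 4 or under the methods' t-test, which left 4 genes. The 5 genes were 17.2% of the members, where the background was 10.6% higher and 7.18% lower. USP18, 1 of the 5, had passed the filter through Cy5 alone, the dye in which it was higher. A ratio above 0 on each of the 4 arrays was found for 6 members (20.7%, background 20.4%), and 0 were below 0 on all 4 (background 13.8%). These 6 included USP18 and DTX3L, which had passed the filter through Cy5 alone. At the brightest probe, the 4 Cy5 bulls all lay above the 4 Cy3 bulls in level for 3 members, IRF9, IFI35 and DTX3L (background 9.46%), and all below for 0 (background 6.48%). DTX3L passed the filter through Cy5 alone, and IRF9 and IFI35 were well above background in both dyes. At the next brightest probe of each of these 3 genes, the Cy5 and Cy3 bulls overlapped.

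**Figure D1:**
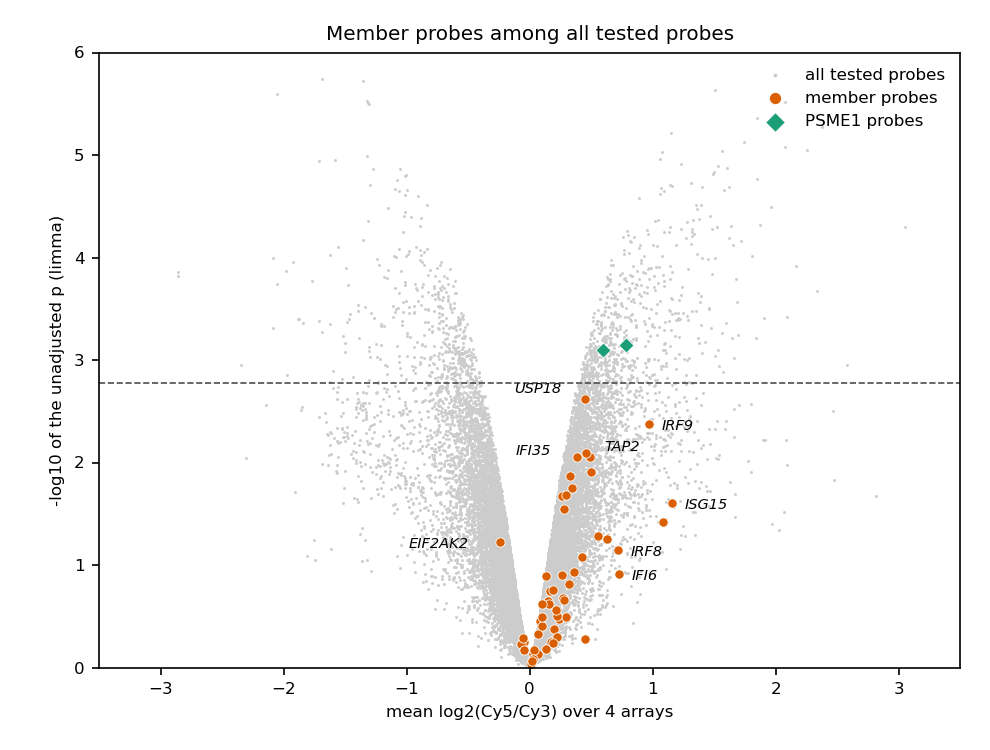
Mean log2(Cy5/Cy3) over 4 arrays (x axis) against −log10 of the unadjusted limma p (y axis) for all 32606 tested probes (grey, 8 outside the plotted range), the 54 member probes (orange) and the 2 PSME1 probes (green). The dashed line marks the largest p that was called after adjustment. All member probes lie below it and most lie right of 0, while both PSME1 probes lie above it.

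The members differed more between arrays than most genes did. The median SD between arrays was 0.30 on the log2 scale for members and 0.23 for named genes, and 13 of 29 members (44.8%) had an SD above 0.5, against 10.9% of named genes. The median of the members was 0.13 on array 1, -0.04 on array 2, 0.26 on array 3 and 0.44 on array 4. Array 2 stood lowest: 17 of 29 members had their lowest ratio there (58.6%, against 19.7% of named genes) and 0 of 29 their highest (against 25.0%). Array 4 held the highest ratio of 14 members (48.3%, against 30.9%).

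**Figure D2:**
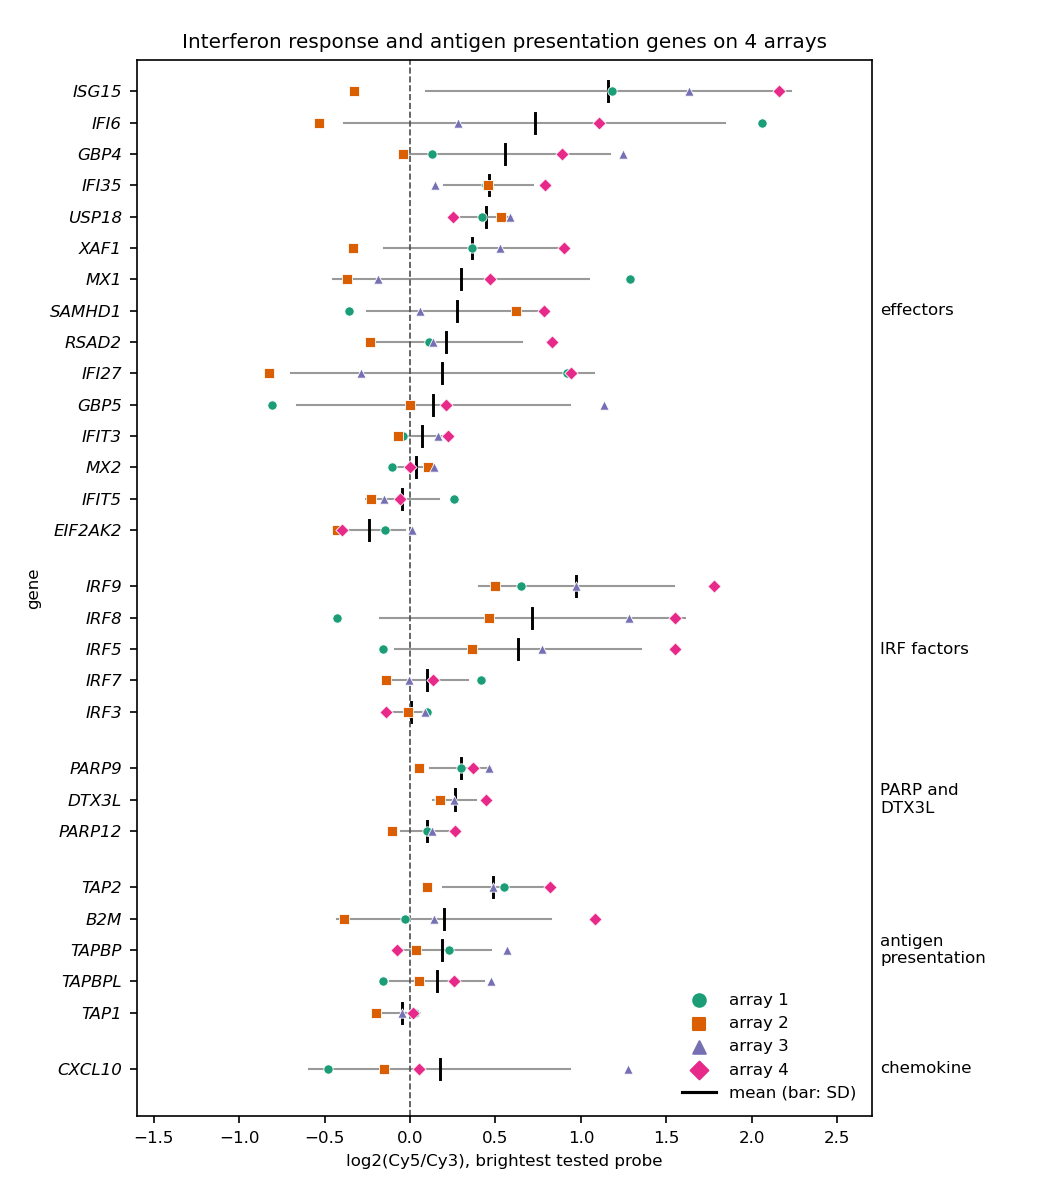
log2(Cy5/Cy3) at the brightest tested probe of each of the 29 tested members (x axis), grouped by role. Symbols are the 4 arrays, the black tick is the mean and the grey bar is the SD. IRF9, TAP2, IFI35 and USP18 lie right of 0 on every array, whereas ISG15 and IFI6 lie left of 0 on array 2.

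Among the effectors, ISG15, a ubiquitin-like protein that is attached to newly made proteins after interferon, had the largest mean ratio of the members. At its brightest probe (A_73_P122741) the log2 ratio was 1.18 on array 1, -0.33 on array 2, 1.63 on array 3 and 2.16 on array 4. The normalized log2 intensity was 9.16, 7.68, 9.31 and 9.20 in the Cy5 bulls of arrays 1 to 4 and 7.98, 8.0, 7.68 and 7.04 in the Cy3 bulls. So 3 of the 4 Cy5 bulls lay above every Cy3 bull, and the Cy5 bull of array 2 fell among the Cy3 bulls. The mean was 1.16 ± 1.07 (SD, n = 4), 2.24-fold, with a 95% interval from 0.21 to 2.11 and an adjusted p of 0.139. The second ISG15 probe gave 1.08 with an adjusted p of 0.174. Levels of single dyes are open to dye bias, as no array was swapped.

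USP18, the protease that takes ISG15 off its targets and dampens the interferon receptor, had a ratio above 0 on every array. The ratio of its probe (A_73_P037226) was 0.42, 0.53, 0.59 and 0.25 on arrays 1 to 4. In level the groups overlapped, with 6.93, 7.30, 7.23 and 6.64 in the Cy5 bulls and 6.51, 6.77, 6.64 and 6.39 in the Cy3 bulls. The mean was 0.45 ± 0.15 (SD, n = 4), 1.36-fold, with an adjusted p of 0.0554. The probe was dim, well above background on 4 of 4 arrays in Cy5 and 3 of 4 in Cy3. Its value depended on the background correction: plain subtraction gave 1.03 (adjusted p = 0.0281) and the signals processed by the scanner software 1.47 (adjusted p = 0.0245), and both passed the threshold.

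IFI35, an interferon-induced leucine zipper protein, was likewise above 0 on every array. The ratio at its brightest probe (A_73_116436) was 0.45, 0.46, 0.15 and 0.79 on arrays 1 to 4. The level was 11.28, 11.37, 11.24 and 11.10 in the Cy5 bulls and 10.84, 10.92, 11.09 and 10.32 in the Cy3 bulls, so that all 4 Cy5 bulls lay above all 4 Cy3 bulls, although the gap was small. The mean was 0.46 ± 0.26 (SD, n = 4; adjusted p = 0.0838), and 0.39 at the second probe. At that second probe the Cy5 and Cy3 bulls overlapped in level.

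IFI6, a small mitochondrial protein induced by type I interferon, had high values in 2 of the 8 bulls. The ratio (probe A_73_P037521) was 2.06 on array 1, -0.53 on array 2, 0.28 on array 3 and 1.11 on array 4. The Cy5 bulls of arrays 1 and 4 were high, at 11.76 and 10.99, while the Cy5 bulls of arrays 2 and 3, at 9.55 and 9.81, lay within the 9.53 to 10.08 of the Cy3 bulls. The mean was 0.73 ± 1.11 (SD, n = 4), with an adjusted p of 0.328. Without replicate 1 the mean was 0.285.

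IFI27, MX1 and the 2′-5′ oligoadenylate synthetase gene OAS1Y, a gene outside the list, had a like order of arrays. IFI27, another small mitochondrial protein induced by interferon, had ratios of 0.92, -0.82, -0.29 and 0.94 at its brightest probe, and a second probe ran from -1.75 on array 2 to 2.03 on array 1. For MX1, a dynamin-like GTPase that blocks viral ribonucleoproteins, the ratios were 1.29, -0.37, -0.19 and 0.47. OAS1Y, whose product starts RNA decay by RNase L, gave 1.72, -0.26, 0.65 and 1.81. At the brightest probe of all these genes array 2 was the lowest, and arrays 1 and 4 held the 2 highest values. The second MX1 probe gave 0.97, -0.33, 0.16 and 0.11 (mean 0.23), so that array 3 lay slightly above array 4 there. The mean ratios were 0.19 for IFI27 (probes 0.19, 0.45 and 0.07), 0.30 for MX1 and 0.98 for OAS1Y, and none passed the adjusted threshold.

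A different order was seen for the guanylate-binding proteins, GTPases that act on the vacuoles of intracellular pathogens. The ratio of GBP4 (probe A_73_P303476) was 0.13, -0.04, 1.25 and 0.89 on arrays 1 to 4, high on arrays 3 and 4. The Cy5 bull of array 3 had the highest level, 8.27, against 6.89 to 7.42 in the other Cy5 bulls and 6.53 to 7.27 in the Cy3 bulls. Its mean was 0.56 ± 0.61 (SD, n = 4; adjusted p = 0.208), and the other probes gave 0.43 and 0.27. Without replicate 3 the mean was 0.33, and with the scanner-processed signals it was 0.99. GBP5 ran from -0.81 on array 1 to 1.14 on array 3, with a mean of 0.14 and an adjusted p of 0.822.

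The remaining effectors were measured as follows. XAF1, a factor that promotes apoptosis, gave 0.36 and 0.33 at its probes, SAMHD1, which breaks down deoxynucleotides, 0.28, and RSAD2 (viperin) 0.21. IFIT3 and IFIT5, which bind viral RNA, were at 0.07 and -0.05, and MX2, which lies beside MX1, at 0.04. The kinase gene EIF2AK2 (PKR), which stops translation on sensing double-stranded RNA, had the lowest mean of all members, -0.24 ± 0.21 (SD, n = 4; adjusted p = 0.224). Of the 15 effectors tested, 13 had means above 0.

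**Figure D3:**
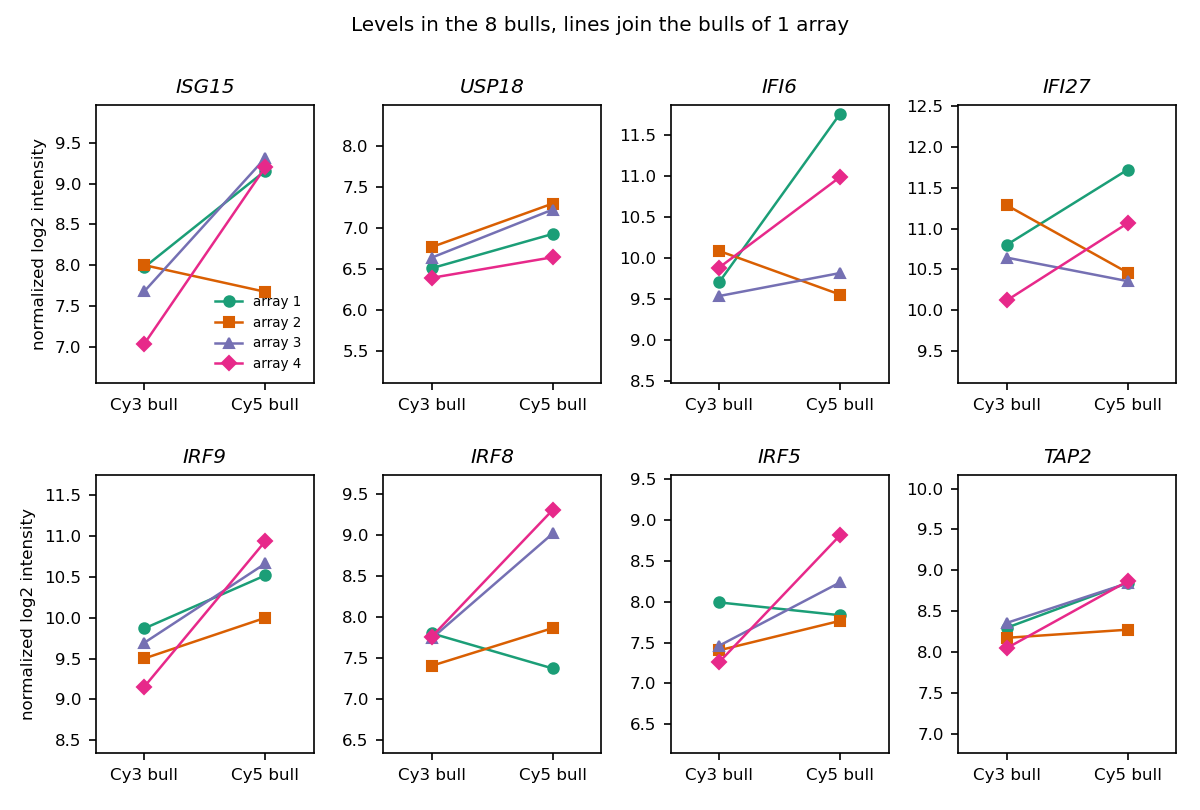
Normalized log2 intensity (y axis, the same span in every panel) in the Cy3 and Cy5 bull of each array for 8 members, with a line joining the bulls of 1 array. Every line goes up for USP18, IRF9 and TAP2, whereas the line of array 2 goes down for ISG15, IFI6 and IFI27, and that of array 1 goes down for IRF8 and IRF5.

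The interferon regulatory factors (IRFs) are the transcription factors that carry the signal to the DNA. IRF9, a DNA-binding factor of the type I interferon response, had a ratio above 0 on every array and at every probe. At its brightest probe (A_73_116714) the ratio was 0.65, 0.50, 0.97 and 1.78 on arrays 1 to 4. The level was 10.52, 9.998, 10.66 and 10.94 in the Cy5 bulls and 9.87, 9.5, 9.69 and 9.16 in the Cy3 bulls, so that the groups did not overlap. The mean was 0.97 ± 0.57 (SD, n = 4), 1.96-fold, with a 95% interval from 0.44 to 1.5 and an adjusted p of 0.0650. Its other probes gave 0.50 (adjusted p = 0.101) and 0.34 (adjusted p = 0.119). The groups overlapped in level at the former probe but not at the latter. With an intensity trend and a robust prior in the test, the brightest probe passed the threshold (adjusted p = 0.0485).

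IRF8 and IRF5, factors of macrophages, dendritic cells and other blood cells, were high on arrays 3 and 4. The ratio of IRF8 (probe A_73_109763) was -0.43, 0.46, 1.28 and 1.55 on arrays 1 to 4. The Cy5 bulls of arrays 3 and 4, at 9.02 and 9.31, lay well above the 7.40 to 7.80 of the Cy3 bulls, and the Cy5 bulls of arrays 1 and 2, at 7.37 and 7.87, did not. The mean was 0.72 ± 0.89 (SD, n = 4), with an adjusted p of 0.245, but a second, dimmer IRF8 probe gave -0.06.

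The ratio of IRF5 (probe A_73_100589) was -0.16, 0.36, 0.77 and 1.55 on arrays 1 to 4. The Cy5 bulls were at 7.83, 7.77, 8.24 and 8.81 and the Cy3 bulls at 7.99, 7.41, 7.46 and 7.26, so that arrays 3 and 4 held the Cy5 bulls above every Cy3 bull. The mean was 0.63 ± 0.72 (SD, n = 4), with an adjusted p of 0.216. Without replicate 4 the means of IRF8 and IRF5 were 0.44 and 0.33. IRF7, which drives the second wave of type I interferon, was at 0.10 and 0.02 at its probes, and IRF3, the factor first activated by viral sensors, at 0.01 and 0.09.

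PARP9 and DTX3L, whose products form a complex, are neighbouring genes and had similar ratios. PARP9 gave 0.30, 0.05, 0.46 and 0.37 on arrays 1 to 4, and DTX3L gave 0.17, 0.17, 0.26 and 0.44. At these brightest probes both were above 0 on every array, by small amounts. The means were 0.30 ± 0.18 (SD, n = 4, adjusted p = 0.129) and 0.26 ± 0.13 (SD, n = 4, adjusted p = 0.13). The other probes gave 0.28 and 0.02 for PARP9, the latter below 0 on arrays 1 and 2, and 0.13 for DTX3L. DTX3L was dim, above background on 2 of 4 arrays in Cy3, and passed the threshold with plain background subtraction (0.65, adjusted p = 0.0473). PARP12 was at 0.10 at both of its probes.

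In antigen presentation, TAP2, a chain of the peptide transporter, had a larger ratio than its partner TAP1. The ratio of TAP2 (probe A_73_P051136) was 0.55, 0.10, 0.49 and 0.82 on arrays 1 to 4. The level was 8.85, 8.28, 8.84 and 8.87 in the Cy5 bulls and 8.30, 8.18, 8.36 and 8.05 in the Cy3 bulls, so that only the Cy5 bull of array 2 fell within the range of the Cy3 bulls. The mean was 0.49 ± 0.30 (SD, n = 4), 1.4-fold, with a 95% interval from 0.18 to 0.80 and an adjusted p of 0.0877. TAP1, the other chain, gave -0.05, 0.15 and 0.16 at its probes, and the difference between the genes was not tested.

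The remaining loading genes had means near 0.2. Tapasin (TAPBP), which holds class I chains at the transporter, was at 0.19, and its relative TAPBPL, which edits peptides, was at 0.16, -0.07 and 0.03 at its probes. B2M, the light chain of MHC class I, had ratios of -0.03, -0.39, 0.14 and 1.08 at its brightest probe, so that array 4 stood apart and array 2 was lowest. Its probes had means between 0.20 and 0.32, none with an adjusted p under 0.373. The chemokine gene CXCL10, which draws T cells, had ratios of -0.48, -0.15, 1.27 and 0.05, with array 3 alone well above 0, and a mean of 0.17 (adjusted p = 0.757).

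Of the 17 members with more than 1 tested probe, 14 had all their probes on one side of 0. The exceptions were IRF8, TAP1 and TAPBPL. The other 12 members rested on a single probe, USP18, IFI6, IRF5 and TAP2 among them.

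Other genes of the same pathway were measured for comparison, from a list of 105 genes of which 59 were tested with 130 probes. PSME1, a subunit of the PA28 activator that opens the proteasome, was higher in the Cy5 bulls and was the only one called. The called probes were thus 2 of 130, where 3.32% of all tested probes were called. Its probes gave 0.60 ± 0.18 (SD, n = 4, adjusted p = 0.0418) and 0.78 ± 0.28 (SD, n = 4, adjusted p = 0.0404), positive on every array, with 0.61, 0.56, 0.40 and 0.82 at the brighter probe. No pathway probe was called lower. Of the 59 genes, 43 were above 0 (72.9%, against 54.3% of named genes), and the median was 0.16. By the thresholds of the study 14 were higher (23.7%, background 10.6%) and 4 lower (background 7.18%).

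Many genes had higher ratios on arrays 3 and 4 than on arrays 1 and 2, a pattern counted after the values were seen: 15 of 29 members (51.7%) and 28 of the 59 pathway genes (47.5%), against 14.5% of named genes. The immunoproteasome genes PSMB8, PSMB9 and PSMB10, which replace the constitutive catalytic subunits, had means of 0.77, 0.88 and 0.60. PSMB9, for example, gave 0.08, 0.27, 1.43 and 1.73 on arrays 1 to 4. Arrays 3 and 4 were likewise high for the MHC class II chain BOLA-DRA (-0.02, 0.36, 1.10 and 1.73), for the tryptophan-degrading enzyme IDO1 (-1.0, 0.24, 2.13 and 1.60) and for the T cell chemokine CCL5 (0.95, 0.53, 2.64 and 2.52). At the brightest probes CCL5 had the largest mean of the pathway list, 1.66 ± 1.08 (SD, n = 4), with an adjusted p of 0.0722. The other CCL5 probes gave 0.78 (adjusted p = 0.141) and 0.82 (adjusted p = 0.127). The latter was well above background in Cy3 on only 1 of 4 arrays. The MHC class I gene BOLA gave 1.10, 0.96 and 0.15 at its probes, and JSP.1, another class I gene, -0.84, 0.57 and 2.10, and as class I genes are near-identical copies that differ between animals, their signals are uncertain.

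Among the receptors, sensors and adaptors, the receptor gene IFNAR2 gave 0.45 and 0.28 at its probes (adjusted p = 0.184 and 0.195), highest on arrays 3 and 4. The kinase TBK1, which phosphorylates IRF3, gave -0.30, -0.12, -0.44 and -0.35. The brightest probes of the receptor gene IFNGR1 and of TMEM173 (STING) were at -1.52 and -1.05, but the other probes were at 0.22 and 0.13 for IFNGR1 and at 0.10 for TMEM173. None of these had an adjusted p under 0.05. The peptide-trimming enzyme ERAP2 was at -0.76 (adjusted p = 0.0947), and the chaperone CALR, which holds class I chains, ran from -0.36 to -0.18 over its probes.

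**Figure D4:**
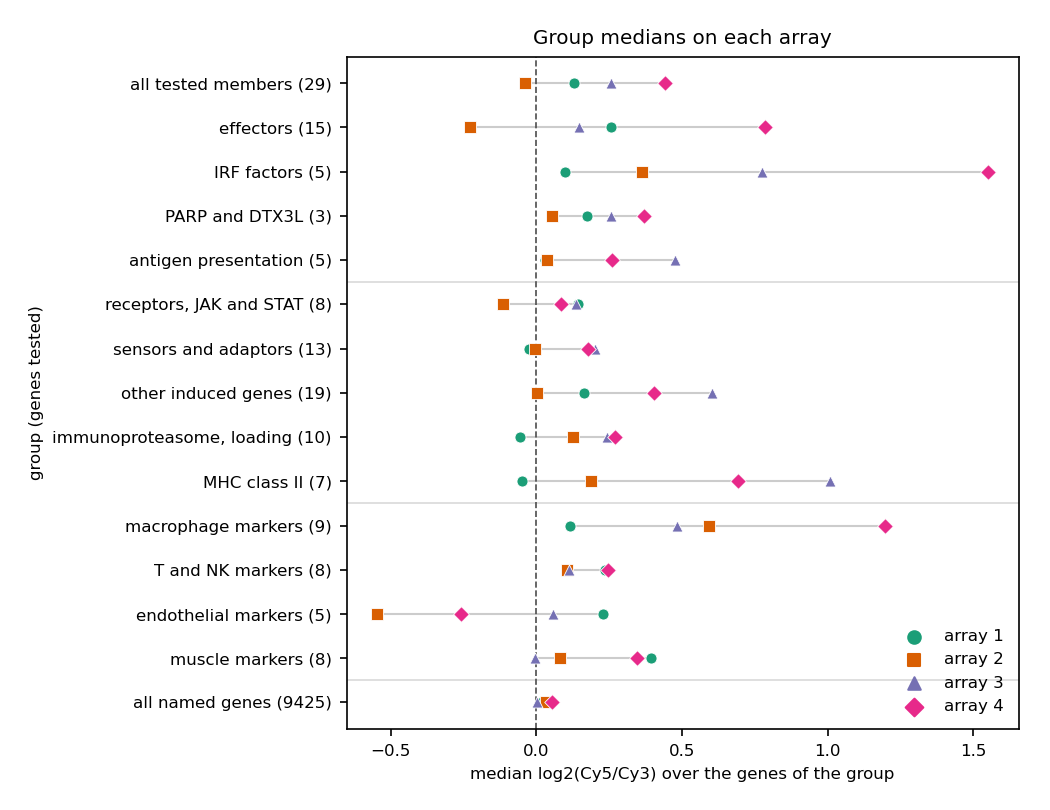
Median log2(Cy5/Cy3) on each array (x axis) over the tested genes of each group (y axis, number of genes in parentheses): members and their groups, other pathway groups, markers of cell types, and all named genes. Symbols are the 4 arrays. Array 4 is highest for effectors, IRF factors and macrophage markers, array 3 for antigen presentation and MHC class II, and the named genes lie near 0 on every array.

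Some members have pathway genes as neighbours. In the gene order of the bovine assembly ARS-UCD2.0, TAP1 lies between PSMB8 and PSMB9 with no protein-coding gene between them. TAP1 was at -0.05 and its neighbours at 0.77 and 0.88. IRF9, PSME2 and PSME1 follow each other with 1 protein-coding gene between each pair, and had means of 0.97, 0.26 and 0.60. MX1 and MX2 are adjacent and were at 0.30 and 0.04.

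Macrophage markers also had higher signal in the Cy5 bulls. Of 12 macrophage and monocyte markers 9 were tested, and 8 had a mean above 0 (background 54.3% of named genes, 52.9% of those well above background in both dyes). LYZ2, at 0.37, was among the 8 and passed the filter on dim probes through Cy5 alone, the dye in which it was higher. The median of the 9 was 0.68, with 0.12, 0.59, 0.48 and 1.2 on arrays 1 to 4. Their summed linear intensity was 7433 to 16210 in the Cy5 bulls and 3878 to 6447 in the Cy3 bulls, without overlap. However, probes of unlike brightness enter this sum. Only 4 of the 9 single markers (CD5L, CD163, C1QA and C1QB) had every Cy5 bull above every Cy3 bull (background 9.46%). CD5L, a scavenger receptor protein of tissue macrophages, was called at 2.07 (adjusted p = 0.0134) at its brightest probe. A second, dim CD5L probe gave 0.30 and was not called (adjusted p = 0.0897). CD14 was at -0.04 and 0.63 at its probes, and CD68 at 0.08 and 0.26. The complement genes C1QA and C1QB were at 1.15 and 1.11. MARCO, C1QC and MRC1 were not among the tested probes.

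The lymphocyte markers gave a mixed picture. Of 10 T and NK cell markers 8 were tested, 5 were above 0, and the median was 0.10. CD3E, with 0.27, 0.48, 1.10 and 0.65 on arrays 1 to 4, and CD8A, with 0.27, 0.17, 0.85 and 0.70, were highest on arrays 3 and 4, as were GBP4, CXCL10 and PSMB9. NKG7 had this order by small amounts (0.28, 0.07, 0.29 and 0.37), while CD2, CD3D, CD3G, CD4 and GZMB did not have it at their brightest probes. A second CD3G probe had it (0.15, 0.10, 0.40 and 0.26). Both CD3G probes were well above background in Cy3 on only 2 of 4 arrays and passed the filter through Cy5 alone. CD3D was at 0.08, -1.34, -0.75 and -2.01, with a mean of -1.01. GZMB was lowest on array 3 (-0.77), and CD2 was highest on array 2 (0.18). The summed intensity of the list was 40160 to 46630 in the Cy5 bulls and 45910 to 49150 in the Cy3 bulls. This sum is mostly the signal of CD4 and CD3D, with mean log2 intensities of 15.25 and 12.22. The other tested markers were at 8.82 or less, so the sum says little about them. PTPRC and CD5 were not among the tested probes. Of 4 B cell markers and 4 dendritic cell markers 2 each were tested and none was above 0, and the endothelial markers had a median of -0.07. The part of these cells in the ratios of the members was not tested.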

How the data were processed

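Muscle RNA of 8 bulls was measured on 4 arrays, each with 1 bull in Cy3 and 1 in Cy5. Per the file headers, the deposited intensity values are uncorrected median signals and median local backgrounds that Agilent Feature Extraction 10.7.3.1 read from each spot. The log10 ratios tabulated for the series, as deposited, were identical to the Cy5 over Cy3 ratios of the processed signals in the scanner files (largest difference 0), with a median of 0 on every array and 7.41% to 12.2% of values at exactly 0. No column of another sample was present. The authors compared breeds in GeneSpring. The array design was annotated on the bovine build Btau 3.1.

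From these files, median signals were corrected by normexp with an offset of 50 and normalized by loess within each array, with control spots at weight 0. Outlier spots, 7 to 14 on each array, were dropped, and replicate spots were averaged per probe. A probe was tested if 1 dye stood well above background on all 4 arrays and 3 or more arrays gave a value, which held for 32606 of 43653 probes. Log2(Cy5/Cy3) was tested against 0, two-sided, by the moderated test of limma 3.58.1 (lmFit, eBayes; R 4.3.3, data.table version 1.17.8, statmod 1.5.0). A probe was called where its p, adjusted by Benjamini-Hochberg over all tested probes, was under 0.05. The criterion of the study (p of at most 0.05, fold change of at least 1.3) was applied to the limma p. Levels per bull were the loess-normalized channels after Aquantile scaling. The test was checked on simulated data.

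Probes were named by matching their reference accession to the RefSeq gene table of ARS-UCD2.0 (23492 of 43653 probes). A gene was represented by its brightest tested probe. Members and gene lists were chosen with earlier results of these data known. Values on every array are given for members past a threshold at any probe and for the 6 members with the largest ratio. Other genes with values were named after their values were seen. The number of arrays limits the precision. All arrays lay on 1 slide, so no batch could be set as a block.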

Additional observations from a re-analysis of the deposited data

How the results depend on the processing

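The direction of the 9 members run under every setting that could test them (ISG15, IRF9, IFI6, IRF8, IRF5, GBP4, TAP2, IFI35 and USP18) was the same under all of the alternatives run, and 15 of their values passed the adjusted threshold there while 110 did not. The number of member probes called, 0 as reported, was 1 without background correction (USP18), 3 with plain subtraction (DTX3L, USP18 and XAF1), 4 with the scanner-processed signals and the series table (DTX3L, IRF9, PARP12 and USP18 in both), 2 with an intensity trend and robust prior (IRF9 and USP18), and 23 with median centring in place of loess. It was 0 with no filter, with a stricter filter and with the methods' t-test, and 0 to 0 with 1 array left out. Median centring moved the median of all tested probes to 0.236 and called 10725 of them, and its ratios are to be read relative to that shift. At the criterion of the study, the 5 members became 9 with each of plain subtraction, the scanner-processed signals and the series table and 19 with median centring. Over all tested probes, those at the criterion rose as well, from 4707 to 7556 with plain subtraction and 13500 with median centring. They numbered 8078 with the scanner-processed signals and the series table. With 1 array left out the members at the criterion numbered 2 to 8: 8 without replicate 1, 8 without replicate 2, 4 without replicate 3 and 2 (IRF9 and USP18) without replicate 4. The median over members, 0.21, was 0.61 with median centring, 0.39 with the scanner-processed signals and the series table, 0.32 with plain subtraction and 0.18 to 0.36 with 1 array left out. Over all 32606 tested probes, calls numbered 1083 as reported, 1391 without background correction and 1512 with plain subtraction. They numbered 1392 with the scanner-processed signals and the series table and 1666 with an intensity trend and robust prior. Without replicates 1 to 4 they numbered 96, 38, 5 and 5. The methods' t-test called 0 probes after adjustment, with 9 member probes at an unadjusted p under 0.05. USP18 (not tested under the stricter filter) was called under 7 of 13 alternatives, with an adjusted p from 0.0245 to 0.195. As each array is a pair of bulls, the reported test was already paired by array, and no further block could be added. The probes of DTX3L, PARP12 and USP18, called under some background corrections, were well above background in Cy3 on only 2, 2 and 3 of 4 arrays. No member had 1 array far from the other arrays by Dixon's test.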
